A study of Arabidopsis thaliana with 18 samples.

Results

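Calmodulin-like (CML) genes of Arabidopsis thaliana encode small calcium sensors. The genes described here were all probe sets assigned to exactly 1 gene whose symbol is CML followed by digits. The rule gave 7 probe sets for 7 genes (CML23, CML30, CML37, CML38, CML41, CML42 and CML43), 1 probe set each, among 22746 probe sets on the array and 13286 gene loci with a probe set of their own. Levels were measured on ATH1 expression arrays as log2 values, so a difference of 1 is a doubling.

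The 18 arrays formed 8 groups in 3 genotypes. The prt6-1 line is a mutant of PRT6, an E3 ligase that recognises arginylated protein ends, ate1 ate2 is a double mutant of the arginyl transferases that act before it, and Col-0 is the wild type. Whole prt6-1 and Col-0 seeds were sampled after 48 h of cold and 24 h of imbibition (3 arrays each). Whole seedlings of ate1 ate2, prt6-1 and Col-0, grown for 7 days on medium with sucrose, were kept for 2 h in argon (hypoxia) or in air in dim light at the end of the day (2 arrays for each genotype and condition). The seedlings of all groups had also had 3 days of cold. The series' design text calls the replicates independent biological experiments. Each mutant genotype is represented by a single line.

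A CML protein is built around EF hands, loops that bind calcium ions. It has no catalytic part, and changes shape when cytosolic calcium rises so that it can bind other proteins. Oxygen shortage is known to raise cytosolic calcium in plant cells. Oxygen also governs the group VII ERF transcription factors. In air they are tagged by ATE1 and ATE2, recognised by PRT6 and degraded, as substrates of the N-end rule, and they persist at low oxygen or where one of these steps is missing. CML38 is known as one of the core hypoxia-induced genes of Arabidopsis, and its protein has been located to stress granules in hypoxic cells.

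How precise each value is depends on the 2 or 3 arrays behind it, and the deposited table gives no signal over background. Array medians lay between 6.70 and 6.88, and arrays of 1 seedling group correlated at 0.995 to 0.997 across probe sets. Col-0 seed replicate 1 stood apart, with a mean correlation of 0.986 with the other Col-0 seed arrays, against 0.990 for each of those arrays and 0.993 to 0.994 for the prt6-1 seed arrays. The chloroplast marker genes RCA and LHCB4.1 had levels of 9.33 to 10.61 in seeds and 13.47 to 14.39 in seedlings. They were the 2 measured of 11 seedling markers, and none of the 10 seed storage and oil body markers had a named probe set. Levels come from whole seeds and whole seedlings, so fewer cells of a type and less RNA per cell cannot be told apart.

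CML38 had the widest range of the 7 genes, 6.19 log2 units over the 18 arrays, wider than that of 99.2% of all probe sets. Its levels in seedlings were 10.75 and 10.60 in ate1 ate2 under hypoxia and 8.86 and 8.77 in ate1 ate2 in air. In prt6-1 they were 11.05 and 10.59 under hypoxia and 8.37 and 8.15 in air. In Col-0 they were 10.05 and 10.13 under hypoxia and 5.03 and 4.86 in air. Air-grown Col-0 held the lowest arrays of the series, both mutants in air stood well above it, and every hypoxic array stood above every air array of any genotype. The Col-0 air readings lay between the 5th percentile of the arrays (3.66 to 3.84) and their medians (6.70 to 6.88). Without a background measurement, fold changes, shares and interactions of CML38 that use them cannot be taken as exact.

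Seeds showed the same contrast between genotypes. CML38 had levels of 10.23, 10.34 and 10.18 in prt6-1 seeds, against 6.35, 6.45 and 6.70 in Col-0 seeds. The lowest prt6-1 seed array lay above all Col-0 seed arrays and above both Col-0 seedling arrays under hypoxia. In order of the group means, CML38 was highest in prt6-1 under hypoxia (10.82), followed by ate1 ate2 under hypoxia (10.67), prt6-1 seeds (10.25), Col-0 under hypoxia (10.09), ate1 ate2 in air (8.82), prt6-1 in air (8.26), Col-0 seeds (6.50) and Col-0 in air (4.94). Only the first and second of these groups overlapped. The gap of 0.16 between prt6-1 seeds and hypoxic Col-0 seedlings was about as large as the pooled standard deviation within groups (0.16) and was not tested.

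**Figure D1:**
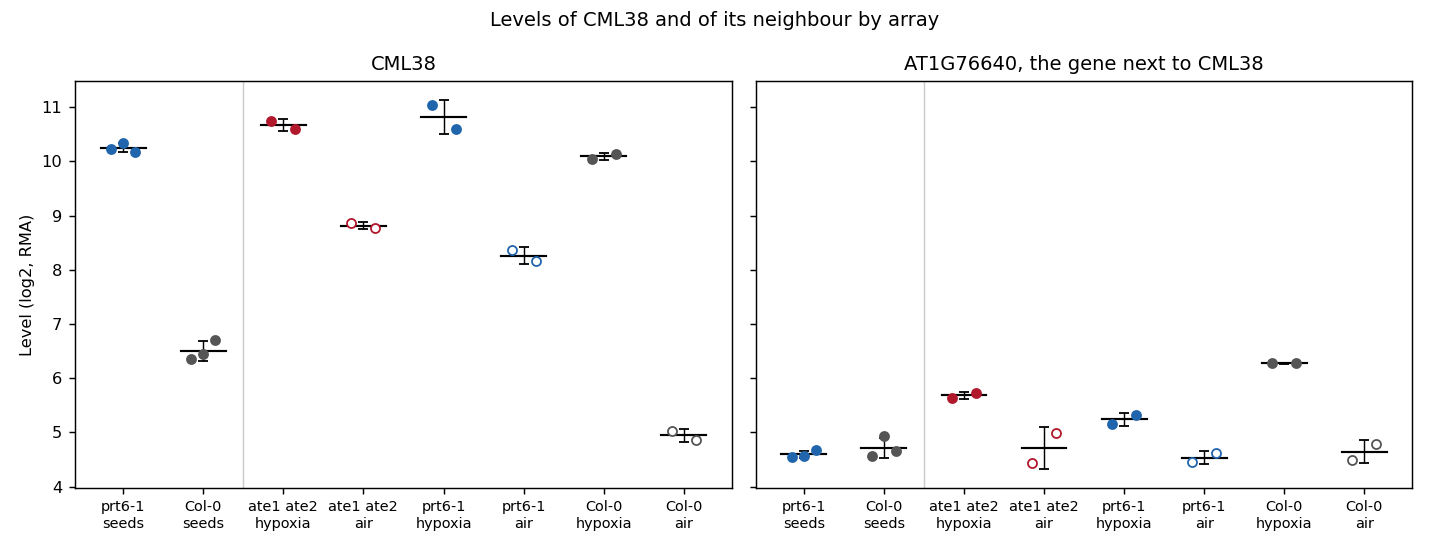
Level (log2) of CML38 (left panel) and of AT1G76640, the gene next to it on chromosome 1 (right panel), in each of the 18 arrays. Points are arrays (open in air), the horizontal line is the group mean and the bar its SD (n = 3 for seeds, n = 2 for seedlings). CML38 is high in every group except Col-0 seeds and Col-0 in air, while AT1G76640 is raised in the 3 hypoxic groups and stays between 4.43 and 4.98 elsewhere.

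The first comparison asked what 2 h of hypoxia did to the family in each genotype. CML38 rose 5.88-fold in prt6-1 (log2 fold change 2.56, SE 0.14, adjusted p = 4.83e-08, limma with Benjamini-Hochberg adjustment over all probe sets), 3.63-fold in ate1 ate2 (1.86, SE 0.14, adjusted p = 2.73e-06) and 35.4-fold in Col-0 (5.15, SE 0.14, adjusted p = 5.13e-12). By fold change these were the 7th, 10th and 3rd largest rises of all probe sets. The Col-0 rise starts from the low air readings described above, so its fold is not exact. The groups did not overlap in any genotype. In groups of 2 or 3 arrays such separation is common without any effect, and its share over all probe sets was not counted. The same limit holds for every separation of groups named below. An adjusted p under 0.05 was taken as a call, and that share of all probe sets was 4.08% in prt6-1 (1.75% higher, 2.32% lower), 2.92% in ate1 ate2 (1.61% higher, 1.31% lower) and 2.1% in Col-0 (1.64% higher, 0.457% lower).

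None of the other 6 genes was called higher in any genotype. CML42, known from trichome branching and from responses to herbivores, fell in prt6-1, to 8.12 and 8.07 under hypoxia, against 8.74 and 8.70 in air (log2 fold change -0.63, SE 0.13, adjusted p = 0.0115). In ate1 ate2 it had 8.22 and 8.26 under hypoxia, against 8.46 and 8.88 in air (-0.43, adjusted p = 0.0965), and in Col-0 8.11 and 8.26 under hypoxia, against 8.14 and 8.29 in air (-0.03). The groups were separate in both mutants and overlapped in Col-0, but separation alone is common without any effect and does not set the genotypes apart. Without any 1 of the 4 prt6-1 seedling arrays the fall of CML42 was not called (-0.60 to -0.65), while without ate1 ate2 air replicate 1, the lower of its pair, CML42 was called in ate1 ate2 as well.

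The remaining members were not called in any genotype under hypoxia. Their largest rises were 0.39 for CML30 in ate1 ate2 (adjusted p = 0.115) and 0.37 for CML43 in Col-0 (adjusted p = 0.261), each with separate groups. In Col-0 the 6 relatives of CML38 had log2 fold changes of -0.10 to 0.37 with a median of 0.00, and their 95% intervals lay between -0.36 and 0.65. The ranges of estimates were -0.63 to 0.26 in prt6-1 and -0.43 to 0.39 in ate1 ate2. All probe sets had medians of -0.02, -0.02 and -0.01 in prt6-1, ate1 ate2 and Col-0.

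CML37, a relative of CML38 in sequence that is known from wounding, insect feeding and drought, had levels of 3.97 and 3.68 in prt6-1 under hypoxia, against 3.62 and 3.51 in air. In Col-0 it had 3.66 and 3.64 under hypoxia, against 3.79 and 3.47 in air. Its probe set was dim throughout: only 4.58% of probe sets had a lower mean, and the 5th percentile of the arrays was 3.66 to 3.84. A bound on its true change cannot be given without a background measurement.

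**Figure D2:**
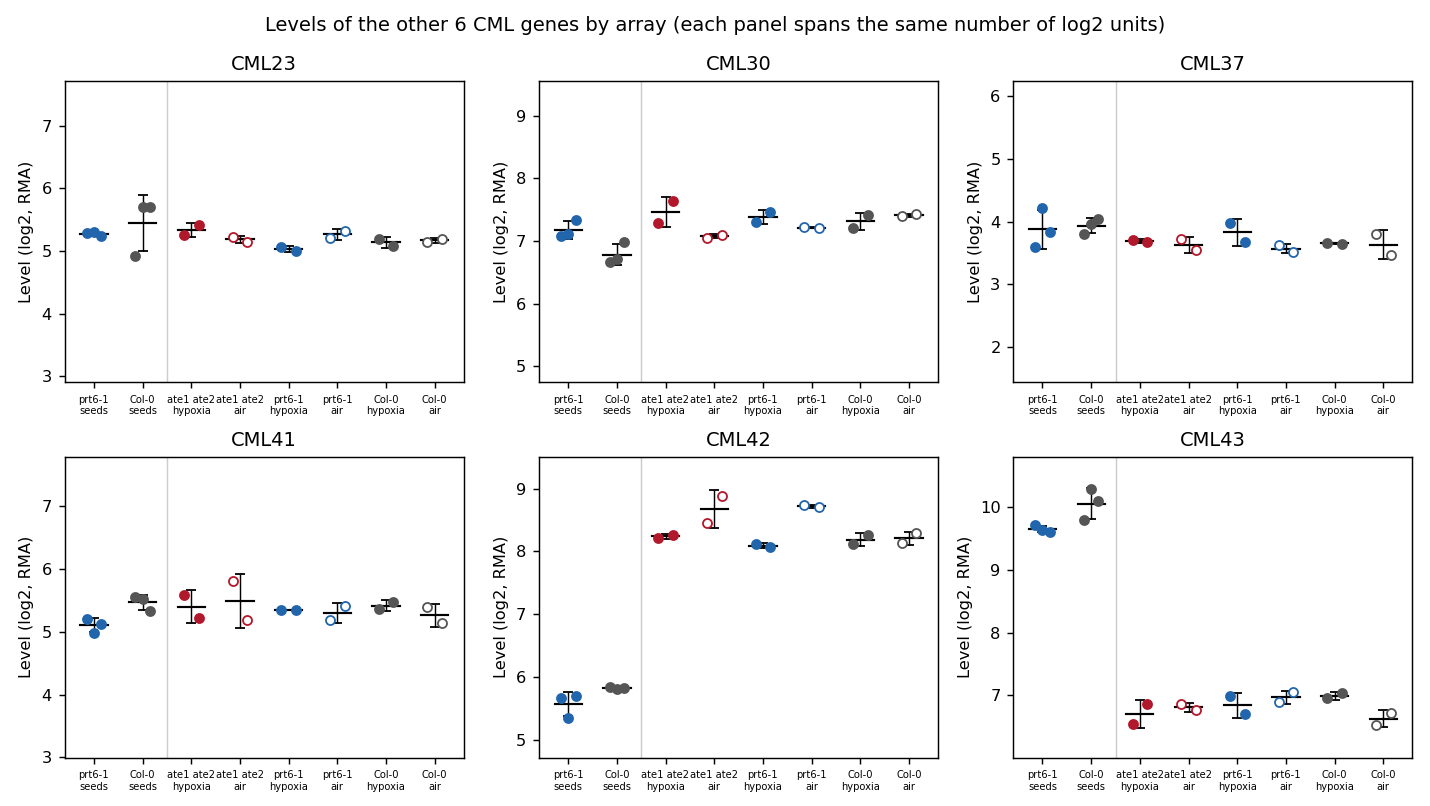
Levels (log2) of the 6 relatives of CML38 in each of the 18 arrays, each panel on an axis of equal span. Points are arrays (open in air), lines are group means and bars SDs (n = 3 for seeds, n = 2 for seedlings). CML42 and CML43 differ between seeds and seedlings, and the other 4 genes vary by less than 1 log2 unit over all arrays.

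Set against Col-0 in air, without any oxygen shortage, the test called 4.15% of all probe sets in prt6-1 (2.18% higher, 1.97% lower) and 3.71% in ate1 ate2 (2.09% higher, 1.62% lower). CML38 was 9.98-fold higher in prt6-1 (log2 fold change 3.32, SE 0.14, adjusted p = 7.75e-10) and 14.6-fold higher in ate1 ate2 (3.87, SE 0.14, adjusted p = 1.04e-10). Both comparisons use the same Col-0 air arrays, whose low CML38 readings limit how exactly the folds and the shares below can be taken. On the log2 scale the difference in air amounted to 64.5% of the Col-0 hypoxia rise in prt6-1 and 75.2% in ate1 ate2. Between the mutants, CML38 in air had a difference of 0.55 (ate1 ate2 minus prt6-1, 95% interval 0.25 to 0.85, adjusted p = 0.23), with separate groups. This comparison called 0.127% of all probe sets (0.0659% higher, 0.0615% lower), none of them a CML gene. At an unadjusted p under 0.05, limma marked 1815 of 22746 probe sets, CML38 among them. Many probe sets would pass that threshold without any difference between the mutants.

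CML42 was the second member to pass the test in air. It was higher in prt6-1 by 0.51 (SE 0.13, adjusted p = 0.0383), and both prt6-1 arrays exceeded both Col-0 arrays. The same prt6-1 air arrays serve in its fall under hypoxia, with opposite sign. In ate1 ate2 the difference was 0.46 (adjusted p = 0.0667), with separate groups as well. That difference was called without ate1 ate2 air replicate 1, with a replicate block, with an intensity trend, and after quantile normalization or median centring. The prt6-1 call was lost without any 1 of the 4 arrays compared (0.43 to 0.58) and in 1 fit of all 18 arrays (0.51). The other 5 genes had differences of -0.20 to 0.35 in prt6-1 and -0.34 to 0.23 in ate1 ate2, and none was called. CML43, known from responses to pathogens, accounted for the 0.35, with 6.90 and 7.05 in prt6-1, against 6.53 and 6.72 in Col-0.

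**Figure D3:**
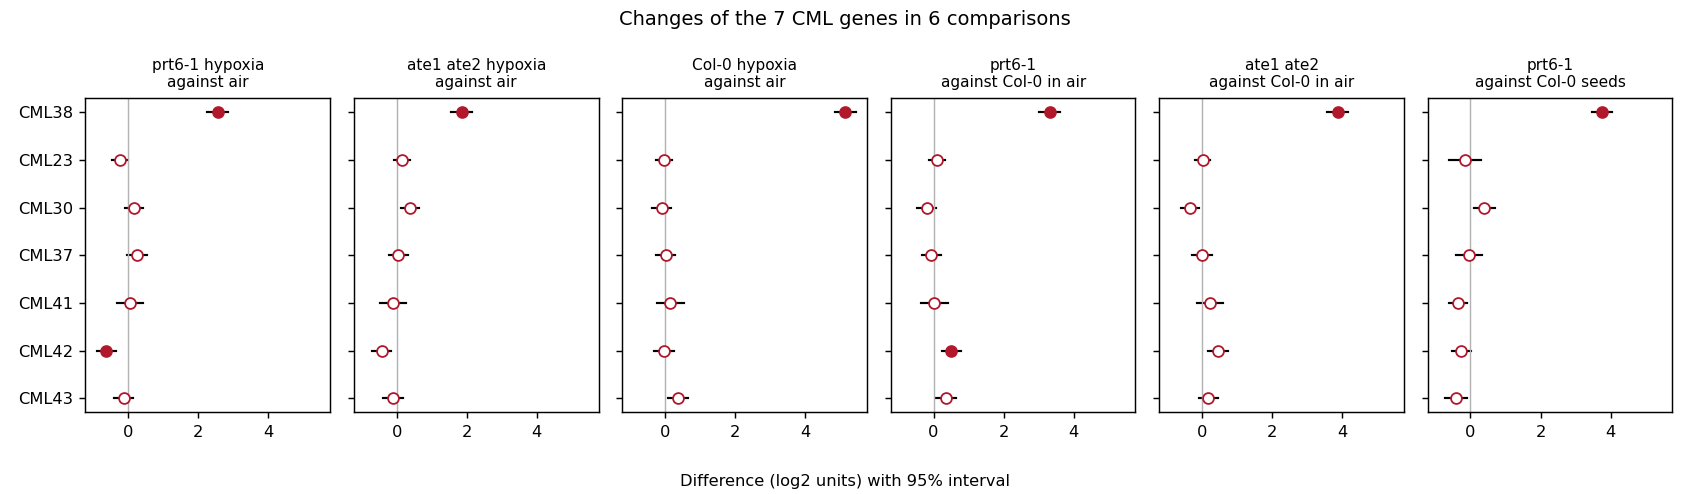
Difference in level (log2 units) with its 95% interval for the 7 CML genes in 6 comparisons, from limma. Filled points were called at an adjusted p under 0.05. CML38 stands between 1.86 and 5.15 in all 6 panels, and the other 6 genes stand between -0.63 and 0.51.

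Under hypoxia the mutants still exceeded Col-0 in CML38, but by far less. The difference was 0.73 in prt6-1 (SE 0.14, adjusted p = 0.00724) and 0.58 in ate1 ate2 (SE 0.14, adjusted p = 0.0388), where 5.19% (1.55% higher, 3.64% lower) and 2.62% (1.11% higher, 1.51% lower) of all probe sets were called. All 4 mutant arrays lay above both Col-0 arrays. Neither call held without every array. The prt6-1 call was lost without Col-0 hypoxia replicate 1 (0.69) or 2 (0.77) or without prt6-1 hypoxia replicate 1 (0.50). The ate1 ate2 call was lost without any 1 of the 4 arrays compared (0.50 to 0.66) and in 1 fit of all 18 arrays (0.58). No other CML gene was called in the hypoxic comparisons, where differences of the relatives were -0.15 to 0.17 in prt6-1 and -0.29 to 0.20 in ate1 ate2. The mutants did not separate from each other in CML38 under hypoxia (ate1 ate2 minus prt6-1 -0.15, 95% interval -0.45 to 0.15, adjusted p = 0.849), where the calls came to 0.163% of probe sets (0.0923% higher, 0.0703% lower).

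In fold terms the hypoxia response of CML38 differed between genotypes, tested as an interaction. The log2 rise in the mutant minus that in Col-0 was -2.59 for prt6-1 (SE 0.20, adjusted p = 3.75e-06) and -3.29 for ate1 ate2 (SE 0.20, adjusted p = 2.29e-07). In log2 units the rise in prt6-1 was 49.7% and that in ate1 ate2 36.1% of the Col-0 rise. The interactions and these shares use the low Col-0 air readings, with the limit given above. CML38 was the 1 CML gene called, among 0.167% of all probe sets for prt6-1, all of them lower, and 0.308% for ate1 ate2 (0.0132% higher, 0.295% lower). The direction depends on the scale. Back-transformed to linear signal, CML38 gained 1522 ± 407 units in prt6-1 and 1186 ± 126 in ate1 ate2, against 1061 ± 44.5 in Col-0 (SD from n = 2 arrays in each condition). The mean linear gain was higher in both mutants than in Col-0, with levels in air of 308 in prt6-1 and 451 in ate1 ate2, against 30.9 in Col-0. The linear values were looked at after the data had been seen and were not tested.

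In seeds the comparison of prt6-1 with Col-0 called 4.11% of probe sets (2.19% higher, 1.91% lower). CML38 was 13.5-fold higher in prt6-1 (log2 fold change 3.75, SE 0.12, adjusted p = 5.67e-06), the 4th largest rise of all probe sets. Without Col-0 seed replicate 1 the difference was 3.68, and it was called there too. Seeds and air-grown seedlings differed in the prt6-1 effect on CML38 by 0.43 (95% interval 0.02 to 0.84, adjusted p = 0.231), which was not called.

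The relatives showed a different picture in seeds. CML43 had 9.71, 9.64 and 9.61 in prt6-1 seeds, against 9.80, 10.28 and 10.10 in Col-0 seeds (-0.40, SE 0.14, adjusted p = 0.152). CML42 had 5.66, 5.34 and 5.70 in prt6-1 seeds, against 5.84, 5.80 and 5.82 in Col-0 seeds (-0.26, adjusted p = 0.296). Neither was called. All prt6-1 arrays lay below all Col-0 arrays in both, but the share of all probe sets with separate groups was not counted. CML41, known from the control of plasmodesmata in defence, was separate in the same direction (-0.36, adjusted p = 0.132), and CML30, assigned to mitochondria, was separate in the opposite direction (0.39, adjusted p = 0.142). Without Col-0 seed replicate 1 the number of CML genes called in seeds was 2 in place of 1, with CML43 added.

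For CML42 and CML43 the effect of prt6-1 differed between seeds and air-grown seedlings. The effect of prt6-1 in seeds minus that in seedlings was -0.76 for CML42 (SE 0.18, adjusted p = 0.0199) and -0.75 for CML43 (SE 0.20, adjusted p = 0.0336), in a comparison that called 5.61% of probe sets (2.55% higher, 3.06% lower). Both calls were lost without Col-0 air replicate 1 (-0.69 and -0.65), prt6-1 air replicate 1 (-0.75 and -0.82) or prt6-1 air replicate 2 (-0.78 and -0.68). The call of CML43 was also lost without Col-0 seed replicate 2 (-0.64) or 3 (-0.73), without prt6-1 seed replicate 2 (-0.74) or 3 (-0.73), and with only the arrays compared (-0.75).

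Seeds and seedlings differed most in CML43 and CML42, in opposite directions. Seeds and seedlings were grown differently, and the labels do not say whether their arrays were normalized in 1 run. Developmental stage and experiment therefore cannot be told apart. Seeds minus air-grown seedlings gave calls for 64.9% of probe sets in prt6-1 (37.2% higher, 27.7% lower) and 65% in Col-0 (38% higher, 27% lower), so that a call of this kind is common to most of the array. CML43 was higher in seeds by 2.68 in prt6-1 and by 3.43 in Col-0 (SE 0.14 each), and CML42 was lower by 3.15 and 2.39 (SE 0.13 each). CML38 was higher in seeds by 1.99 in prt6-1 and by 1.55 in Col-0 (SE 0.14 each). CML30 was lower in seeds in Col-0 (-0.63, SE 0.13, adjusted p = 0.000336) and had a difference of -0.04 in prt6-1.

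CML23, CML37 and CML41 were called in none of the 15 comparisons. CML23, known from nitric oxide signalling and flowering time, ranged between 5.00 and 5.41 over the 12 seedling arrays. Its widest spread was in Col-0 seeds, at 4.92, 5.70 and 5.70, where replicate 1, the array that stood apart, was the low one. CML41 ranged between 5.14 and 5.80 in seedlings, and its most widely spaced pair was ate1 ate2 in air (5.80 and 5.19). CML30 lay between 7.05 and 7.64 in seedlings.

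CML38 was also set against the median of its 6 relatives within each array. Among seedlings, air-grown Col-0 was again lowest, and among seeds Col-0 was lower than prt6-1. The level of CML38 itself was lower in prt6-1 seeds (10.18 to 10.34) than in hypoxic ate1 ate2 (10.60 to 10.75) or prt6-1 (10.59 to 11.05). The difference between CML38 and that median was 4.71 to 5.02 in prt6-1 seeds and 0.65 to 0.94 in Col-0 seeds. Under hypoxia it was 4.46 to 4.69 in ate1 ate2, 4.57 to 4.88 in prt6-1 and 3.88 to 3.90 in Col-0. In air it was 2.52 to 2.80 in ate1 ate2, 1.93 to 2.32 in prt6-1 and -1.10 to -0.93 in Col-0. These differences combine separate probe sets and are comparable only within seeds or within seedlings. Between seeds and seedlings the relatives shift as well, with CML42 lower and CML43 higher in seeds.

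The wider family was taken from a list of 50 CML loci written from background knowledge, of which 35 had a named probe set (the 7 genes above and 28 loci that the tables name by code alone). Over the 35 loci, hypoxia called 3 higher and 1 lower in prt6-1, 3 higher and none lower in ate1 ate2, and 2 higher and none lower in Col-0, with medians of -0.01, 0.01 and 0.03. These calls were 11.4%, 8.57% and 5.71% of the family, beside 4.08%, 2.92% and 2.1% of all probe sets. Against Col-0 in air 3 were higher and none lower in prt6-1, and 2 were higher and 1 lower in ate1 ate2 (8.57% in each, beside 4.15% and 3.71%). Against Col-0 under hypoxia 1 was higher and 3 were lower in prt6-1 (11.4%, beside 5.19%), and 1 was higher and none lower in ate1 ate2 (2.86%, beside 2.62%). In prt6-1 seeds 1 was higher and 1 lower than in Col-0 seeds (5.71%, beside 4.11%). All of these counts are of 4 loci or fewer and include CML38.

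The 1 other locus called higher in all 3 genotypes under hypoxia was AT1G76640, which lies next to CML38 in the gene order of assembly TAIR10.1. That gene table gives CML39 as a synonym of AT1G76640 and also of CML37. AT1G76640 had 5.64 and 5.73 in ate1 ate2 under hypoxia, against 4.43 and 4.98 in air, and 5.15 and 5.33 in prt6-1 under hypoxia, against 4.45 and 4.62 in air. In Col-0 it had 6.28 and 6.27 under hypoxia, against 4.49 and 4.79 in air. The hypoxic arrays lay above the air arrays in each genotype, and the Col-0 pair was the highest.

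AT1G76640 rose by 0.71 in prt6-1 (SE 0.16, adjusted p = 0.0184), by 0.98 in ate1 ate2 (SE 0.16, adjusted p = 0.00275) and by 1.64 in Col-0 (SE 0.16, adjusted p = 1.09e-05). In air it had differences from Col-0 of -0.11 in prt6-1 (adjusted p = 0.828) and 0.07 in ate1 ate2 (adjusted p = 0.902), where CML38 had 3.32 and 3.87. In seeds its difference was -0.12 (adjusted p = 0.662), where CML38 had 3.75. Under hypoxia the difference of AT1G76640 in prt6-1 from Col-0 was -1.04 (SE 0.16, adjusted p = 0.0014), the opposite direction to CML38, and its value in ate1 ate2 was -0.59 (adjusted p = 0.0645). Its interactions of -0.93 and -0.66 were not called (adjusted p = 0.21 and 0.441). The rise in prt6-1 was not called without any 1 of the 4 prt6-1 seedling arrays (0.62 to 0.80). Whether transcripts of either gene bind to the probe set of the other was not tested. In the mutants in air, where CML38 stood at 8.15 to 8.86, the probe set of AT1G76640 read 4.43 to 4.98. Those readings lie between the 5th percentile of the arrays (3.66 to 3.84) and their medians (6.70 to 6.88). Without a background measurement, a bound on the true difference of AT1G76640 in air or in seeds cannot be given.

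**Figure D4:**
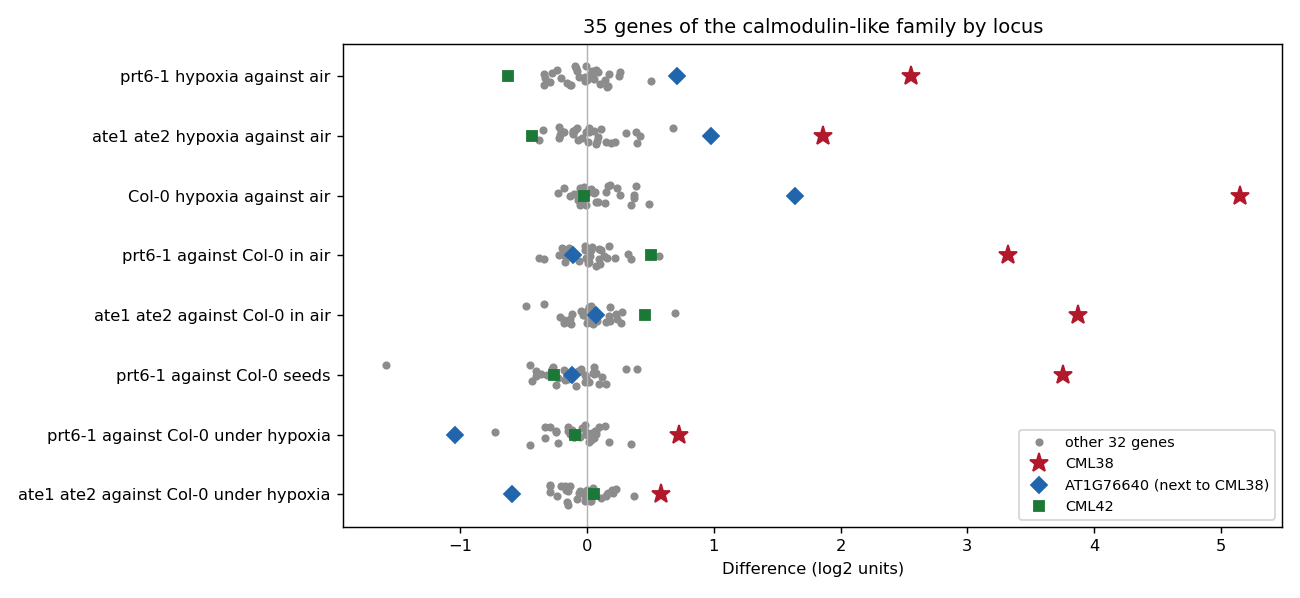
Difference in level (log2 units) of 35 calmodulin-like family loci in 8 comparisons. Each point is 1 gene (small vertical offsets are random), with CML38, its neighbour AT1G76640 and CML42 marked. AT1G76640 lies right of most other genes in the 3 hypoxia comparisons, among them in the mutant comparisons in air and in seeds, and left of them in both mutant comparisons under hypoxia.

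AT3G10190 was also called higher under hypoxia in both mutants, and its rise in Col-0 was of similar size but just missed the call. It had 7.07 and 7.21 in prt6-1 under hypoxia, against 6.50 and 6.77 in air, and 7.07 and 7.28 in ate1 ate2, against 6.45 and 6.55 in air. In Col-0 it had 7.54 and 7.40 under hypoxia, against 7.04 and 6.92 in air, a difference of 0.49 (adjusted p = 0.0536). The rises were 0.50 in prt6-1 (SE 0.12, adjusted p = 0.0309) and 0.68 in ate1 ate2 (SE 0.12, adjusted p = 0.00616), and in air AT3G10190 was lower in ate1 ate2 than in Col-0 (-0.48, adjusted p = 0.0424). In 1 fit of all 18 arrays none of these 3 calls held (0.50, 0.68 and -0.48). The rise in prt6-1 was also lost with only the arrays compared (0.50), without prt6-1 air replicate 1 (0.37) or without prt6-1 hypoxia replicate 1 (0.58) or 2 (0.43). The rise in ate1 ate2 was lost when hypoxia replicate 2 of that genotype was dropped (0.57). The fall in air was lost without any 1 of the 4 arrays compared (-0.54 to -0.42) and in most other settings, quantile normalization (-0.46) among them.

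AT1G24620 was higher in air in both mutants, at 4.91 and 5.01 in prt6-1 and 5.09 and 5.08 in ate1 ate2, against 4.47 and 4.30 in Col-0. The differences were 0.57 (SE 0.10, adjusted p = 0.00533) and 0.70 (SE 0.10, adjusted p = 0.0012). Both use the same Col-0 air arrays. Under hypoxia the group means were 4.62 in prt6-1, 4.70 in ate1 ate2 and 4.55 in Col-0. These readings are low on the arrays (5th percentile 3.66 to 3.84), so a bound on the true differences cannot be given without a background measurement. The prt6-1 call was lost without prt6-1 air replicate 2 (0.52). In seeds AT1G24620 had 4.42, 4.29 and 4.27 in prt6-1, against 4.75, 4.90 and 4.69 in Col-0 (-0.45, adjusted p = 0.058), and the effect in seeds minus that in seedlings was -1.02 (SE 0.14, adjusted p = 0.000382).

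AT5G17470, near the low end of the arrays in seedlings, was the 1 family locus called lower in prt6-1 seeds. AT5G17470 had 4.27, 4.32 and 4.14 in prt6-1 seeds, against 5.46, 5.98 and 6.04 in Col-0 seeds, a log2 fold change of -1.58 (SE 0.16, adjusted p = 0.00141), and lay between 3.75 and 4.01 in seedlings. Under hypoxia AT1G73630 had 6.91 and 7.19 in prt6-1, against 7.72 and 7.83 in Col-0 (-0.72, SE 0.12, adjusted p = 0.00317). AT2G41090 had 10.32 and 10.24 in prt6-1, against 10.68 and 10.77 in Col-0 (-0.45, SE 0.10, adjusted p = 0.0215). The call of AT2G41090 was lost without any 1 of the 4 arrays compared (-0.49 to -0.40), when all arrays were fitted together (-0.45) and with arrays centred on their medians (-0.39).

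Among the 28 loci outside the 7 genes, AT2G41090 and AT1G73630 also had the largest differences between seeds and seedlings. AT2G41090 had 5.45 to 6.02 in prt6-1 seeds, against 10.53 and 10.68 in prt6-1 seedlings in air, and 6.06 to 6.40 in Col-0 seeds, against 10.83 and 10.73 in Col-0 seedlings in air. Of the 35 loci, seeds had 5 higher and 11 lower in prt6-1 and 9 higher and 10 lower in Col-0. These are 45.7% and 54.3% of the family, below the shares over all probe sets given above. None of the 7 calmodulins, 10 calcineurin B-like sensors, 34 calcium-dependent protein kinases and 14 calcium pumps and exchangers on lists of the same kind had a named probe set, and they are not analysed here.

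Over the 18 arrays the levels of the other 6 CML genes had no close likeness to CML38, with Pearson correlations of -0.19 (CML23) to 0.36 (CML30), against a median of -0.07 over 13512 single-gene probe sets. Of the wider family described above, AT3G47480, named after its values were seen, had the highest correlation, 0.71 (0.88 over the 12 seedling arrays), but its levels spanned only 0.63 log2 units, and it was called in no seedling comparison. AT1G76640 had 0.49. The points share the same arrays and groups, and large steps between groups dominate such a value. The 10 probe sets with the highest correlation, 0.90 to 0.98, were AT4G33560, AT1G33055, AT2G31390, AT3G27220, AT2G47720, AT5G66985, AT2G17850, AT2G46550, AT1G74940 and AT3G22540, and none is a CML gene. The 10th had 0.902 and the next 0.882.

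These 10 genes differed from CML38 and from each other in the size of their steps between groups. AT4G33560, with the closest pattern (0.98), had differences of 2.87 in prt6-1 in air, 3.57 in prt6-1 seeds and 3.53 under hypoxia in Col-0, where CML38 had 3.32, 3.75 and 5.15. AT2G17850 had a larger difference in prt6-1 in air (5.36) than under hypoxia in Col-0 (4.35), the reverse of CML38. AT2G31390 moved little, by 0.48 in prt6-1 in air and 0.83 under hypoxia in Col-0. AT1G33055 was close to CML38 in Col-0 hypoxia (4.89) and in ate1 ate2 in air (3.84), but its difference in prt6-1 seeds was 2.23.

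**Figure D5:**
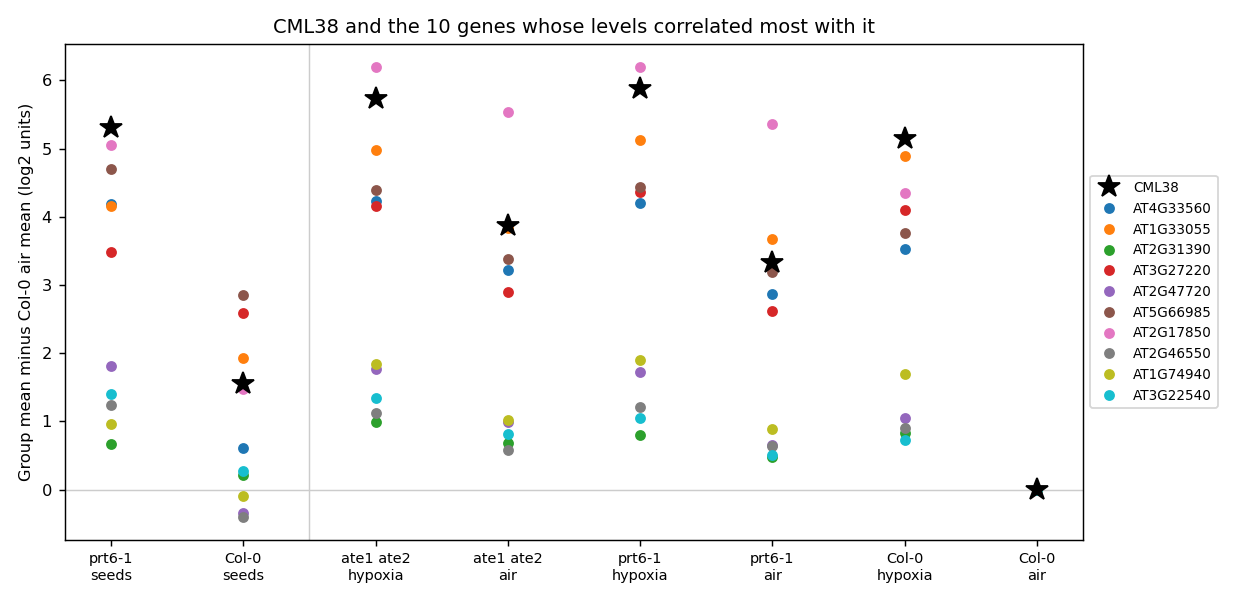
Group mean minus the Col-0 air mean (log2 units) for CML38 (stars) and the 10 single-gene probe sets whose levels correlated most with it over 18 arrays (points, r from 0.90 to 0.98). All groups are set to the Col-0 air mean, which is 0. CML38 stands at 5.15 in Col-0 under hypoxia and 3.32 in prt6-1 in air, and several of the 10 genes move by less than 2 log2 units in any group.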

How the data were processed

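Biotin-labelled cRNA from whole seeds and seedlings was hybridised to ATH1 arrays. The authors deposited 1 log2 value per probe set and array, and per the submitters' processing notes the tools were affy and RMA, with no version named. RMA corrects background, gives all arrays 1 distribution and summarises each set's probes.

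Of 22810 rows, 64 AFFX controls were left out. GEO's platform annotation, updated through the TAIR10.1 gene table, gave 1 gene for 13513 probe sets, several for 503 and none for 8730. It holds no coordinates of the authors' build, and none are printed. No 2 arrays were identical (at least 99.97% of probe sets differed).

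Differences were tested with limma 3.58.1 in R 4.3.3 (lmFit, eBayes, two-sided), adjusted over 22746 probe sets and called under 0.05. Seeds were fitted alone, the 6 seedling groups together, and comparisons of seeds with seedlings in all 18 arrays. SE and 95% intervals are moderated. The script was tested on simulated data. The CML genes and the lists were chosen with earlier results of these data known. Genes outside the 7 were named by rule: up to 4 called family loci with the largest change in a comparison, and the 10 highest correlations with CML38. Values of AT1G76640 and of the other named loci in comparisons where this rule does not name them were added after their values had been seen, AT1G76640 because it adjoins CML38. Where a gene had several probe sets, the brightest over all arrays stood for it.

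Alternatives covered normalization, filters, the variance model, the arrays entering the fit, a replicate block, a stricter threshold and leaving out each array.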

Additional observations from a re-analysis of the deposited data

Results flagged for a closer look

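The hypoxia response of CML38 differed between genotypes, by a called interaction of -2.59 for prt6-1 and -3.29 for ate1 ate2 relative to Col-0 (limma, log2 units). On the linear scale, which was not tested, the sign turned. The effect of prt6-1 differed between seeds and air-grown seedlings by -0.76 for CML42 and by -0.75 for CML43 (limma, log2 units). Neither of these calls held in every setting. For CML43 the effect of prt6-1 was called neither in seeds nor in air-grown seedlings. Groups had 2 or 3 arrays, so no test for a single outlying array was made.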

How the results depend on the processing

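The calls of CML38 for hypoxia in each genotype, for both mutants in air, for prt6-1 seeds, for both interactions and for seeds against seedlings held in all settings run on the log2 scale. These were array weights, a robust prior, an intensity trend, median centring, quantile normalization and a filter on the 33.3% of probe sets with the lowest means. Others were a restriction to single-gene probe sets, only the arrays compared, a replicate block and an adjusted p under 0.01. A single fit of 18 arrays was run for comparisons within seeds or within seedlings. Each array was also left out, where the lone array left in a seedling group is assumed to vary like the others. As increments on the linear scale, added after seeing the data, the interactions were 461 signal units for prt6-1 and 125 for ate1 ate2 above Col-0, with the sign turned. The mutants under hypoxia were the weak point. With an array left out, CML38 ranged from 0.50 to 0.96 in prt6-1 and from 0.50 to 0.66 in ate1 ate2, with 0 or 1 CML gene called. The ate1 ate2 value of 0.58 was not called in 1 fit of all 18 arrays or under 0.01, leaving 0 genes. Between the mutants under hypoxia, the uncalled CML38 difference of -0.15 ranged from -0.37 to 0.083 with an array left out, turning sign without prt6-1 hypoxia replicate 1. The number of CML genes called went to 1 in place of 2 in prt6-1 under hypoxia (under 0.01, and 1 with any array left out) and in prt6-1 in air (under 0.01, in 1 fit of all 18 arrays, and 1 with any array left out). It was 2 in place of 1 in ate1 ate2 in air after quantile normalization, median centring, an intensity trend or the replicate block (1 to 2 with an array left out), with CML42 added, and 1 to 2 in ate1 ate2 under hypoxia with an array left out. For prt6-1 seeds the count was 2 with array weights, 3 in 1 fit of all 18 arrays and 1 to 2 with an array left out. For the difference of the prt6-1 effect between seeds and seedlings, 2 genes became 1 with only the arrays compared and 0 under 0.01. Leaving out an array changed that count as well. The causes were not tested. The replicate number as a block changed no other call of the 7 genes. Deviations of same-numbered arrays had correlations of -0.08 to -0.02 in seeds and -0.23 to 0.26 in seedlings. No seed array of 6 correlated best with its own number. Of 15 pairs of seedling groups, 12 had a correlation above 0 and 7 over 0.1. The numbers were not taken to pair the arrays, though for seedlings these values do not settle whether they do. Array signal over background is unknown, which limits what can be said of the dim CML37 and of CML38 in Col-0 in air.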
